A study of Mus musculus with 10 samples.

Results

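High mobility group (HMG) proteins are small, abundant proteins that bind chromatin without being core histones. The 9 genes described here are the members of the 3 families HMGB (Hmgb1, Hmgb2, Hmgb3), HMGA (Hmga1, Hmga2) and HMGN (Hmgn1, Hmgn2, Hmgn3, Hmgn5) that were picked by symbol from a deposited count table of 24544 genes. All 9 passed a filter on low counts that retained 12203 genes. They were proposed with the difference between the sorted populations already known, so that difference is given for them as a description and is not tested.

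The libraries came from mouse bone marrow of the Hoxb5-mCherry strain at 2 to 3 months of age, a strain in which a fluorescent protein reports Hoxb5. Both groups were sorted as long-term hematopoietic stem cells by a shared gate (Lin-, cKIT+ and SCA1+; CD150+ with CD48-; FLK2- with CD34-; Hoxb5+) and were split by neogenin-1 (NEO1) at the cell surface. There were 5 NEO1+ and 5 NEO1- libraries, each made by Smart-seq2 from 250 to 500 cells of 2 pooled mice. All mice carried the reporter, and the labels name no other allele or treatment. The labels do not say whether the pools of different libraries were separate mice, so the spread between libraries may be partly technical. In bulk RNA, fewer cells that express a gene and less of its RNA per cell cannot be told apart.

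HMGB proteins carry a pair of HMG boxes, which bend DNA, and an acidic tail. HMGA proteins bind the minor groove of AT-rich DNA through AT-hooks, and HMGN proteins bind the nucleosome itself and compete there with linker histone H1. HMGB2 is known to be abundant in dividing cells, HMGA2 is known for promoting self-renewal in fetal blood stem cells downstream of LIN28B and let-7, and HMGB3 is known in blood stem and progenitor cells.

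Library totals ran from 21.2 to 38.9 M counts, of which the ribosomal RNA precursor Rn45s took 27.9% to 42.4%. Kit, Ly6a and the other stem cell markers summed to 2612 to 2989 counts per M (CPM) in NEO1+ and 2570 to 3052 in NEO1- libraries. Of 10 lymphoid markers, 5, among them Cd3e and Rag1, had 0 counts in all libraries, and Cd79b, at 25.0 to 60.9 CPM, made up nearly all of their sum. NEO1+ library 4 had 12.5 CPM of Neo1, inside the NEO1- range of 4.56 to 18.9 CPM, whereas the other NEO1+ libraries had 48.6 to 64.8 CPM, so values without it are given where a result rests on it. A cell cycle score, the mean log2 CPM of 94 S phase and G2 and M phase genes that include none of the 9, was 4.54 to 5.04 in NEO1+ libraries and 2.63 to 2.80 in 4 NEO1- libraries. NEO1- library 4 stood apart from its group with a score of 4.06.

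The 9 genes were read at very different levels. CPM here is the count divided by the library size after TMM scaling, and levels of different genes are compared only as CPM per kb of the transcript that matches RefSeq. The median over the 10 libraries was 479 CPM per kb for Hmgn2 and 165 for Hmgb1. It was 110 CPM per kb for Hmgn1, 83.4 for Hmgn3, 60.1 for Hmgb2 and 41.1 for Hmgb3. Hmgn5 followed with 11.7, Hmga2 with 4.12 and Hmga1 with 0.342 CPM per kb. Hmgn2 was above Hmgb1, and Hmgb1 above Hmgn1, in all 10 libraries. The ranges of Hmgn1, Hmgn3, Hmgb2 and Hmgn5 each overlapped that of the next gene in the order. Within libraries, Hmgn1 was above Hmgn3 in 9 of 10, Hmgn3 above Hmgb2 in 9, Hmgb2 above Hmgb3 in 8 and Hmgn5 above Hmga2 in 9. With the merged exons of all transcripts as the length, Hmgb2 and Hmgn3 exchanged places, at 52.6 and 43.9 CPM per kb. These levels depend on how repeated sequence was counted, which is not given in the sources used here. In the GENCODE M21 annotation 69.1% of the 50-base words of Hmga1, 67.1% of those of Hmgn2 and 40.9% of those of Hmgb1 also lie in other genes, most of them processed pseudogenes in the case of Hmgb1 (130 of 132). The shares were 34.2% for Hmgb3, 22.1% for Hmgn3, 21.9% for Hmgb2, 18.6% for Hmgn5, 6.54% for Hmgn1 and 4.36% for Hmga2.

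**Figure D1:**
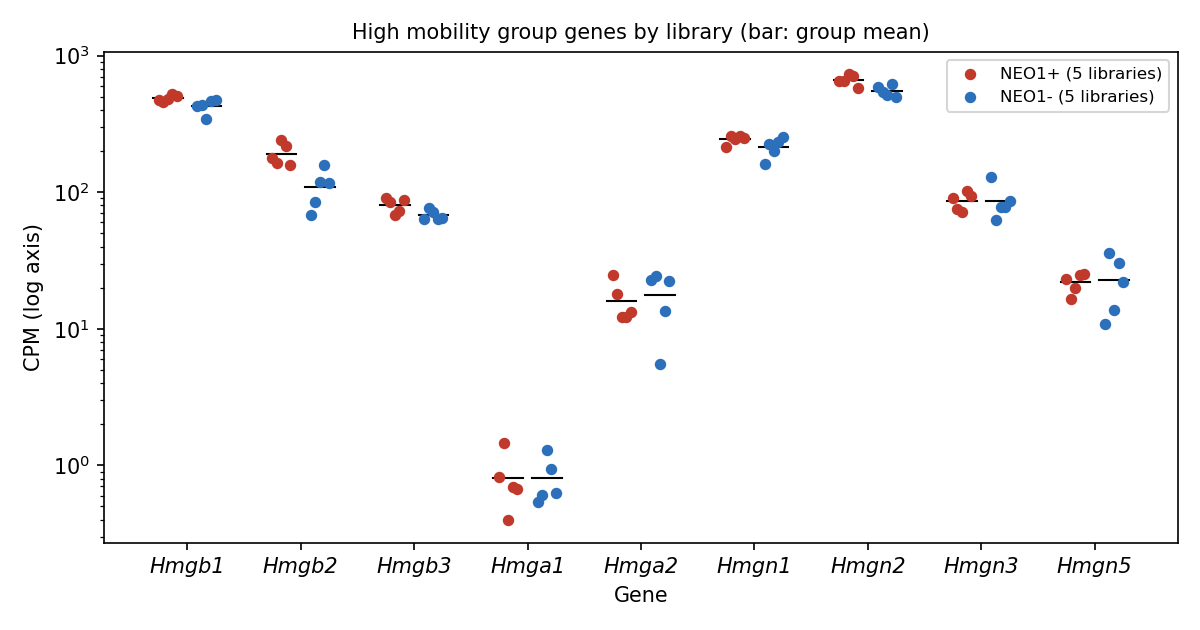
CPM of each of the 9 genes (vertical axis, log scale) in the 5 NEO1+ and 5 NEO1- libraries, 1 point per library, with a bar at the group mean. The Hmgb2 points of the groups just fail to overlap (158.1 against 157.9 CPM), and those of the other 8 genes overlap.

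Of the 3 HMGB genes, which encode the DNA-bending members, Hmgb2 had the widest separation between the groups. Hmgb2 lies at chr8:57511907-57515999 on the plus strand (mm10). NEO1+ libraries 1 to 5 had 177, 162, 239, 218 and 158 CPM of Hmgb2, whereas NEO1- libraries 1 to 5 had 68.0, 84.1, 119, 158 and 116 CPM. All NEO1+ libraries were above all NEO1- libraries, but NEO1+ library 5 (158.1 CPM, 95% exact counting interval 154.0 to 162.4) and NEO1- library 4 (157.9 CPM, 153.6 to 162.2) differed by less than their counting error. The intervals cover counting error only and take each read as independent. PCR reads without molecular identifiers are not independent molecules, so the intervals are likely too narrow. The means were 191 ± 35.8 and 109 ± 34.8 CPM (SD, n = 5 each). The log2 fold change was 0.81 with a standard error (SE) of 0.21, or 1.75-fold. Hmgb2 was the only one of the 9 genes whose groups did not overlap. Among the 12203 genes tested, 1.35% did not overlap with NEO1+ higher and 1.13% with NEO1+ lower, and the members were chosen on this contrast, so nothing is read from that count.

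The narrow margin for Hmgb2 was set by NEO1- library 4, the library with the high cell cycle score. Without it the highest NEO1- value was 118 CPM against a lowest NEO1+ value of 157 CPM, and the log2 fold change was 0.98 (SE 0.20). Without NEO1+ library 4, the one with little Neo1 RNA, the log2 fold change was 0.75 (SE 0.23). On CPM of all counts, without TMM scaling, the groups overlapped: NEO1- library 4 had 167.8 CPM of Hmgb2, above the 165.6 and 165.9 CPM of NEO1+ libraries 2 and 5. More genes were detected in NEO1+ (12800 to 13808) than in most NEO1- libraries (11477 to 13147), and NEO1- library 4 had both the most genes and the lowest Rn45s share (30.7%) of its group. The summed megakaryocyte markers did not overlap (219 to 243 against 143 to 204 CPM). By itself each of the 7 did, with 4 log2 fold changes above 0 and 3 below. Vwf had 71.8 to 137 CPM in NEO1+ and 41.9 to 75.9 in NEO1- libraries, and Gp9 22.1 to 31.3 and 14.2 to 43.7. The sums overlapped for erythroid markers (27.1 to 376 against 9.74 to 218 CPM) and for granulocyte and monocyte markers (494 to 3103 against 380 to 3093 CPM). All 6 erythroid markers tested had a log2 fold change above 0 (median 1.53), none past the edgeR threshold. For granulocyte and monocyte markers, 5 were above 0 and 4 below. NEO1+ library 3, with the most Hmgb2, had the highest of these sums, and NEO1- library 3 the highest of its group. The sums of lymphoid markers overlapped too (34.1 to 50.3 against 25.1 to 60.9 CPM). The part of these measures in the Hmgb2 difference was not tested.

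Hmgb1, the most abundant HMGB gene and also a danger signal when released from cells, lies at chr5:149046702-149184489 on the minus strand. It had 470, 457, 485, 520 and 509 CPM in NEO1+ libraries 1 to 5 and 426, 436, 340, 464 and 475 CPM in NEO1- libraries 1 to 5. The groups overlapped, with 3 NEO1+ libraries above every NEO1- library and NEO1- library 3 well below the rest. The log2 fold change was 0.19 (SE 0.10), and 0.12 (SE 0.08) without NEO1- library 3. Hmgb3, an X-linked gene at chrX:71555918-71560676 on the plus strand, had 91.2, 84.6, 68.0, 72.2 and 87.3 CPM in NEO1+ and 63.3, 76.7, 71.0, 63.9 and 64.6 CPM in NEO1- libraries. NEO1+ libraries 1, 2 and 5 were above every NEO1- library, and libraries 3 and 4, the NEO1+ pair with the most Hmgb2, were inside the NEO1- range. The log2 fold change of Hmgb3 was 0.25 (SE 0.15). Without TMM scaling, on library totals of the genes that passed the filter, Hmgb3 became the member whose groups did not overlap. Its lowest NEO1+ value was 75.1 and its highest NEO1- value 68.0 CPM. The median log2 fold change of all genes was 0.16 on that scale. The share of all genes that did not overlap was not counted there, so nothing is read from this.

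The balance within the HMGB family does not depend on how libraries are scaled. Per 100 counts of Hmgb1, Hmgb2 had 37.6, 35.5, 49.3, 41.9 and 31.0 counts in NEO1+ libraries 1 to 5, and 15.9, 19.3, 35.0, 34.0 and 24.5 in NEO1- libraries 1 to 5. NEO1- libraries 3 and 4 were above NEO1+ library 5, so the groups overlapped. As a share of all HMGB counts, Hmgb2 made up 25.0% ± 3.60 of the NEO1+ libraries' pool and 17.9% ± 4.84 of the NEO1- libraries' pool (SD over 5 libraries each). The difference was 7.11 percentage points, or 7.06 when counts are taken per kb. Hmgb1 made up 64.3% ± 2.26 and 70.8% ± 4.82, and Hmgb3 10.7% ± 1.79 and 11.3% ± 1.79. The HMGB pool held relatively more Hmgb2 and less Hmgb1 in NEO1+ libraries, with overlapping ranges for each gene.

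**Figure D2:**
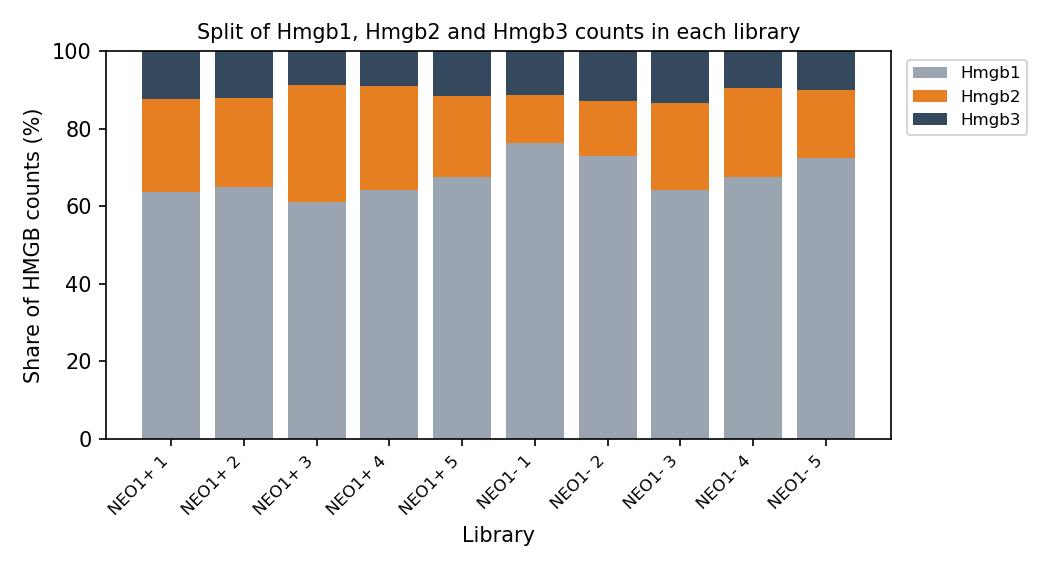
Share of HMGB family counts (percent, vertical axis) taken by Hmgb1, Hmgb2 and Hmgb3 in each of the 10 libraries, as stacked bars from 0. Hmgb2 took 20.95% to 30.2% of the NEO1+ bars and 12.2% to 23.0% of the NEO1- bars.

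Regions just upstream of RefSeq starts of the HMGB genes are shown for motifs of cell cycle genes. Genes of G2 and M phases are known for several CCAAT boxes and a TTTGAA core (the cell cycle genes homology region) near their starts. Each line gives the 250 bases before a RefSeq start, 5′ to 3′ on the strand of the gene (GRCm38.p6, the assembly of mm10). Capitals mark CCAAT and TTTGAA on either strand, so that TTCAAA is TTTGAA on the other strand. Hmgb2 is chr8:57511593-57511842, Hmgb3 is chrX:71555667-71555916 and Hmgb1 is chr5:149053058-149053307, the farther upstream of a pair of RefSeq starts. The windows before each RefSeq start of Hmgb1 lie inside its longer GENCODE span (chr5:149046702-149184489), whose upstream end was not searched.
Hmgb2: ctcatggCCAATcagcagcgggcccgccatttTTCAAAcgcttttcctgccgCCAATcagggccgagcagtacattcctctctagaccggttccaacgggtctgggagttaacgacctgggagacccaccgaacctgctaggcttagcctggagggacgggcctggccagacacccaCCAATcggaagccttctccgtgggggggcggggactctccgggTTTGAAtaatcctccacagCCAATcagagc
Hmgb3: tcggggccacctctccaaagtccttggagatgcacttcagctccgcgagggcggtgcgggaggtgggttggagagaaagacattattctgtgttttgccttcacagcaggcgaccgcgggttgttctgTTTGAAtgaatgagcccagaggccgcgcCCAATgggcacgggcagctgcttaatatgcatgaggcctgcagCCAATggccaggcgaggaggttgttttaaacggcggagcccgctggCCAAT
Hmgb1: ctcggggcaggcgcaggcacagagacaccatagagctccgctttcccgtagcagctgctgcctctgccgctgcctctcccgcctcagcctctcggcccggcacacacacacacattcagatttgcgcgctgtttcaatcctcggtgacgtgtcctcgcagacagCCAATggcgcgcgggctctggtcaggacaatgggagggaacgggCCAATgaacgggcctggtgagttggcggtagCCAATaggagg

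Counted to the first base of each match, Hmgb2 held 4 CCAAT boxes, at 243, 198, 73 and 11 bases before the start, and 2 TTTGAA matches, at 218 and 30 bases. Hmgb3 held 3 CCAAT boxes, the nearest 5 bases before its start, and 1 TTTGAA match at 122 bases. Hmgb1 held 3 CCAAT boxes and no TTTGAA match, and the window before its other RefSeq start held neither. Among 32851 mouse promoter windows of that length, 33.8% held CCAAT, 2.79% held it 3 or more times, and 16% held TTTGAA. At least 2 CCAAT boxes together with TTTGAA, as in Hmgb2 and Hmgb3, were found in 1.53% of all windows and in 17.9% of the 84 windows of the cell cycle score genes. Of the other members with an entry, Hmgn1 and Hmgn5 held 2 CCAAT boxes each, and Hmgn2, Hmga1 and Hmga2 held none. TTTGGCGC and TTTCCCGC, a pair of E2F motif forms found on either strand in 0.417% and 0.895% of all windows, were in none of the members' windows. The matches describe letters in a window; binding was not measured.

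Hmgn2, the most abundant of the nucleosome-binding HMGN genes, lies at chr4:133964738-133968650 on the minus strand. It had 646, 654, 735, 704 and 580 CPM in NEO1+ libraries 1 to 5 and 592, 537, 518, 619 and 494 CPM in NEO1- libraries 1 to 5. NEO1+ libraries 1 to 4 were above every NEO1- library, and library 5, which also had the least Hmgb2 of the NEO1+ group, was inside the NEO1- range. The log2 fold change was 0.27 (SE 0.09), or 1.20-fold. Library 5 was the only NEO1+ library inside that range, so the Hmgn2 groups necessarily separated without it (643 against 616 CPM).
The window before the RefSeq start of Hmgn2, chr4:133967992-133968241, is shown beside that of Hmgb2, with none of the motifs searched. It lies inside the GENCODE span of the gene given above. The bases before the upstream end of that span were not searched, so the absence of motifs holds for this start only.
Hmgn2: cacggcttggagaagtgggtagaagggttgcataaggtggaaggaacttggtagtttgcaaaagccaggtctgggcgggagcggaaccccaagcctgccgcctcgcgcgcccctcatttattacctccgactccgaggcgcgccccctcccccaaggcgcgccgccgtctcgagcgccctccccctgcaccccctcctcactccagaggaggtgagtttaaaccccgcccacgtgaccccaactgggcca

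Hmgn1 (chr16:96120618-96127729, minus strand), a close relative of Hmgn2, had 216, 258, 243, 256 and 249 CPM in NEO1+ and 160, 223, 199, 234 and 253 CPM in NEO1- libraries. NEO1+ library 1 and NEO1- library 1 were the lowest of their groups, and the groups overlapped. The log2 fold change was 0.19 (SE 0.12), and 0.10 (SE 0.10) without NEO1- library 1. Hmgn3 (chr9:83109948-83146685, minus strand) had NEO1+ values from 71.3 to 101 CPM, with a median of 90.2, and NEO1- values from 62.4 to 129 CPM, with a median of 77.9. Its log2 fold change was -0.00 (SE 0.19). Hmgn5 (chrX:109004534-109013404, minus strand), whose protein has a long acidic tail, had NEO1+ values from 16.4 to 25.2 CPM and NEO1- values from 10.9 to 36.1 CPM. Its log2 fold change was -0.05 (SE 0.35). Its coefficient of variation was 16.8% over NEO1+ and 47.3% over NEO1- libraries, and the difference in spread was not tested. Within the HMGN family the shares of counts overlapped between groups: Hmgn2 took 65.2% ± 2.76 of the NEO1+ and 63.0% ± 3.23 of the NEO1- pool, and Hmgn1 took 24.1% ± 1.83 and 24.5% ± 4.21 (SD over 5 libraries each).

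Hmga2, the AT-hook gene known from fetal stem cells, lies at chr10:120361275-120476469 on the minus strand. It had 24.7, 18.0, 12.1, 12.2 and 13.4 CPM in NEO1+ libraries 1 to 5 and 22.8, 24.3, 5.49, 13.4 and 22.3 CPM in NEO1- libraries 1 to 5, so that it was detected in every library of these adult cells. NEO1+ library 1 and NEO1- libraries 1, 2 and 5 were high and NEO1- library 3 was low, with values from 162 to 716 counts. The spread was 4.51-fold from lowest to highest, and the log2 fold change was -0.13 (SE 0.43). Hmga1 (chr17:27556497-27563674, plus strand) was read at 13 to 57 counts per library, with NEO1+ values of 0.396 to 1.46 CPM and NEO1- values of 0.541 to 1.29 CPM. Its log2 fold change was 0.01 with an SE of 1.09, the widest of the 9 genes. Hmga1 shares most of its sequence with a near-identical copy, Hmga1b, which has no row in the count table, and overlaps AI413582 on the opposite strand, which had 4895 counts in all. Reads of overlapping genes cannot be told apart if strand was not used in counting, so the level of Hmga1 is uncertain. Hmgb1, Hmga2, Hmgn3 and Hmgn5 also overlap annotated genes.

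Over the 9 genes the log2 fold change was above 0 for 6 and below 0 for 3, with a median of 0.19; without TMM scaling, which moved the median of all genes to 0.16, it was above 0 for all 9. Over the 12203 genes tested it was above 0 for 6228, and the median was 0.01. None of the 12203 genes passed an adjusted p of 0.05 in this contrast by edgeR's quasi-likelihood test (0%), with 806 genes at an unadjusted p under 0.05. DESeq2 called 146 genes on the same counts. All 9 genes had an SE of their log2 fold change between 0.09 (Hmgn2) and 1.09 (Hmga1). The SE was smallest for Hmgn2, Hmgb1 and Hmgn1, the genes with the most counts. Hmgb2 broke this order: its SE (0.21) was above those of Hmgb3 (0.15) and Hmgn3 (0.19), which had lower mean CPM. The within-group SD of log2 CPM of Hmgb2 was above that of 89.5% of 895 genes of similar mean log2 CPM.

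**Figure D3:**
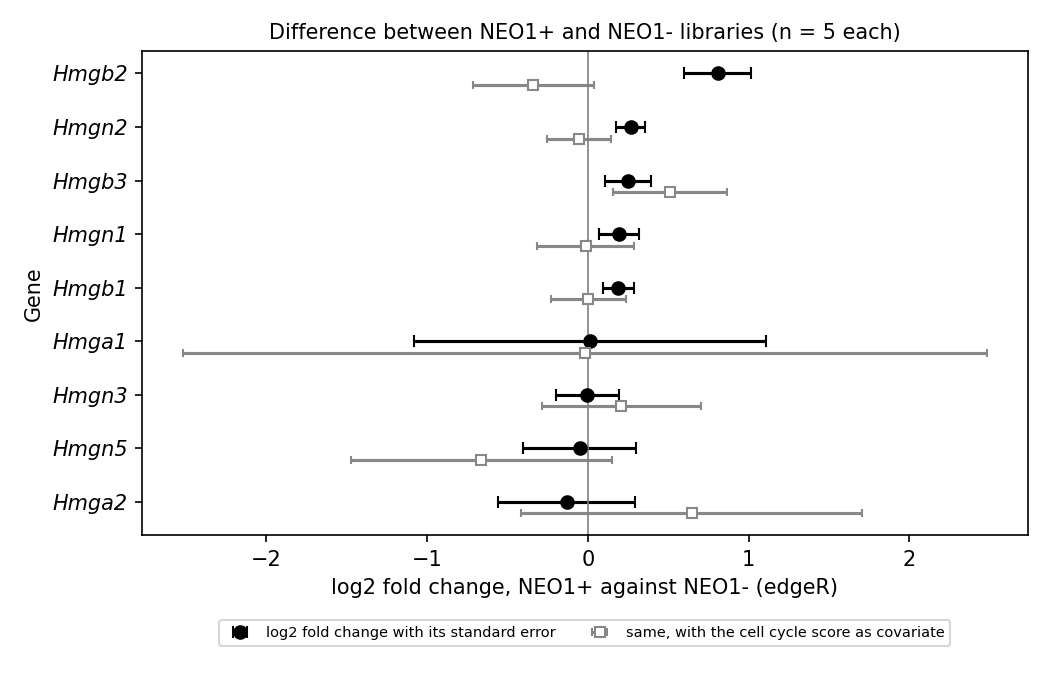
Log2 fold change of NEO1+ against NEO1- libraries (horizontal axis, edgeR, n = 5 per group) for each gene, with bars of 1 SE, shown as black circles. Grey squares give the same after the cell cycle score was added as a covariate. Hmgb2 goes from 0.81 to -0.34 and Hmgn2 from 0.27 to -0.06.

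A further question was which of the genes varied with cell cycle genes among libraries of the same group. The difference between the groups does not enter it. The members and gene lists were still chosen with earlier results of these data known, so the p-values of the slopes may not be independent of that choice. For this question the score was centred within each group, and its slope was tested in edgeR with the group in the model. The slope is the change in log2 CPM per unit of the score. Hmgb2 had a slope of 0.65 (SE 0.18), with an unadjusted p of 0.00397 by edgeR. It was the largest of the 9 in this fit, but not with a score over S phase genes alone (0.46 against 0.48 for Hmgn5) or without NEO1- library 2 (0.61 against 0.71 for Hmgn5). It did not pass adjustment over all genes (adjusted p = 0.9998 by edgeR), and 0% of the 12203 genes did. At an unadjusted p under 0.05, 1.52% of genes had a positive and 1.16% a negative slope (327 genes in all), and Hmgb2 was the only one of the 9. Leaving out NEO1- library 4 reduced the 327 genes to 117, and leaving out another NEO1- library gave 499 to 545. With DESeq2, which called 176 genes, Hmgb2 had a slope of 0.63 and an adjusted p of 0.117. Within the NEO1+ group the libraries with the highest scores, 4 and 3, also had the most Hmgb2, and those with the lowest, 5 and 2, the least. Within the NEO1- group library 4 was highest for both. Without NEO1- library 4 the slope of Hmgb2 was 1.32 (SE 0.47), so it remained positive, with a wider error.

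For the other 8 genes the slopes were within 2 SE of 0 in this fit. They were beyond it for Hmgb1 over S phase genes alone (0.23, SE 0.10) and without TMM scaling (0.26, SE 0.11), and for Hmgn2 without NEO1- library 1 (0.22, SE 0.09) and without TMM scaling (0.31, SE 0.08). Hmgn2 had a slope of 0.18 (SE 0.10, unadjusted p = 0.093 by edgeR), Hmgn5 of 0.35 (SE 0.41), Hmgn1 of 0.12 (SE 0.15) and Hmgb1 of 0.10 (SE 0.11). Hmga1 had a slope of 0.02 (SE 1.31). Slopes below 0 were estimated for Hmgb3 (-0.14, SE 0.18), Hmgn3 (-0.11, SE 0.25) and Hmga2 (-0.42, SE 0.53). These estimates moved when 1 library was left out, from -0.56 to -0.10 for Hmgb3 and from 0.15 to 0.32 for Hmgn2. The slope estimated for Hmgb2, 0.65, lay within 2 SE of the estimates for Hmga1 and Hmgn5, at the edge of that interval for Hmga2, and outside it for the other 5 genes. The slopes of different genes were not tested against each other.

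**Figure D4:**
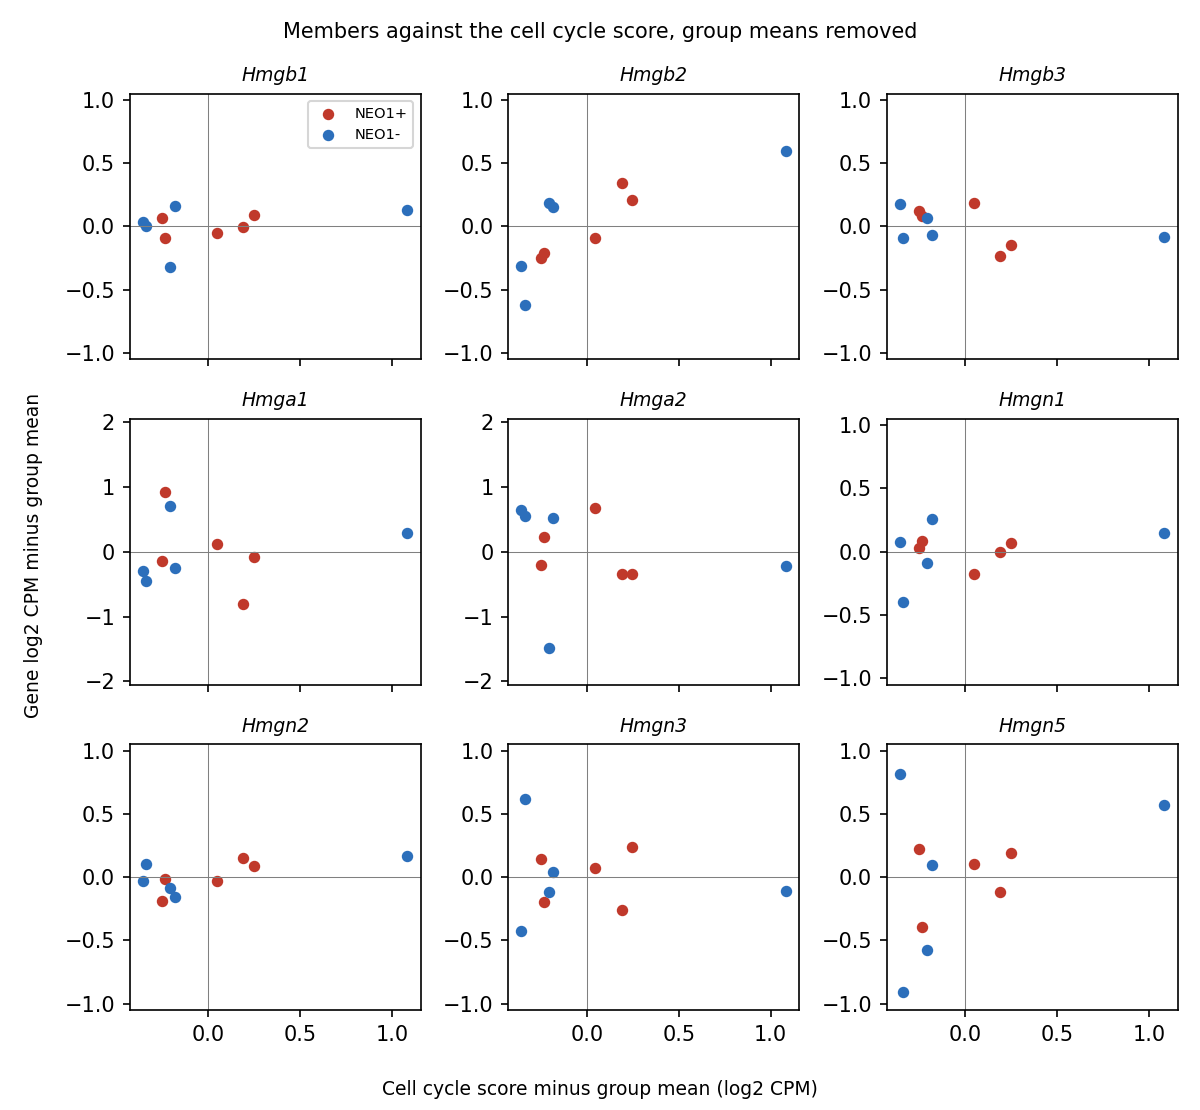
Log2 CPM of each gene (vertical axis) against the cell cycle score (horizontal axis, mean log2 CPM of 94 genes), both with the group mean subtracted, 1 point per library and coloured by group. NEO1- library 4 is the point at the far right, 1.08 above its group's mean score, where Hmgb2 is 0.59 above its group mean.

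With the score as a covariate, the log2 fold change between the groups was -0.34 (SE 0.38) for Hmgb2, -0.06 (SE 0.20) for Hmgn2, 0.00 (SE 0.23) for Hmgb1 and -0.01 (SE 0.30) for Hmgn1. It was 0.51 (SE 0.35) for Hmgb3, 0.65 (SE 1.06) for Hmga2 and -0.66 (SE 0.81) for Hmgn5. Hmgn3 was at 0.21 (SE 0.49) and Hmga1 at -0.02 (SE 2.50). The score itself did not overlap between the groups, so group and score cannot be told apart in these libraries. Of the 94 score genes, 87 had a log2 fold change above 0, with a median of 0.90, and none passed the edgeR test. Mcm4, of the replication helicase, had a log2 fold change of 0.90 and Rfc2, of the clamp loader, of -0.24 (edgeR adjusted p = 0.248 and 0.940). Cdk1, the mitotic kinase, was at 1.69 and Rangap1 at -0.48 (edgeR adjusted p = 0.155 and 0.750).

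Other genes that act with HMG proteins were counted in the same fit, and none of them passed the edgeR test in either direction. Of 16 HMG-box proteins outside the 3 families, 11 had a log2 fold change above 0 and 5 below. Tox, a T cell HMG-box factor, had 53.3 against 31.7 CPM (log2 fold change 0.75, edgeR adjusted p = 0.593), and Tfam, which packages mitochondrial DNA, had a log2 fold change of -0.27. Of 6 linker histones, the H1 proteins that HMGN and HMGB proteins compete with, 5 were above 0 and 1 below, with 0.40 for H1f0 and -0.55 for Hist1h1d. Of 18 histone chaperones 12 were above 0 and 6 below, with 1.59 for Asf1b, which delivers histones during DNA replication, and -0.14 for Set. Of 5 genes tested from the LIN28B, IGF2BP and HMGA2 axis 3 were above 0, led by Igf2bp2, an RNA-binding protein, at 0.84. Dicer1, which cuts let-7 precursors, was at -0.34. Of 6 receptors of extracellular HMGB1, 2 were above 0 and 4 below, with 0.90 for Tlr2 and -2.67 (SE 1.47) for Il1r1.

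The genes whose log2 CPM most resembled that of the most abundant member of each family, once the group means were removed, were ranked over 10 libraries among 5022 genes. For Hmgb1 they were Sec24c, Txnip and Dpysl2, with a Pearson r of 0.95 each. For Hmga2 they were Ube2l6 (0.95), Abcf3 (0.94) and Sri (0.94), and for Hmgn2 they were 4933434E20Rik (0.93), Hat1 (0.92) and Scp2 (0.90). These values describe the best of 5022 candidates over 10 points that share their library and its scaling, and none of the 9 named genes belongs to the cell cycle score.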

How the data were processed

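Bulk RNA of 10 libraries was measured by Smart-seq2 with 18 PCR cycles and 40 ng of cDNA for tagmentation, per the labels' protocols. The authors deposited raw counts per gene symbol, and a table of log2 values that the authors made from those counts divided by a size factor per library. The submitters' processing notes name bcl2fastq 2.18, STAR 2.4, DESeq2 1.22.2 and the build mm10. The counting tool, annotation, strand and treatment of multimapping reads are not given in the sources used here.

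Genes were filtered (filterByExpr), scaled by TMM and fitted with edgeR 4.0.16 in R 4.3.3 (quasi-likelihood, robust) over all 10 libraries, with Benjamini-Hochberg adjustment over 12203 genes and a threshold of 0.05. The SE of a log2 fold change is its size divided by the square root of F. Log2 CPM used a prior count of 2. Alternatives were DESeq2 1.42.0, limma 3.58.1 on the deposited log2 values, RLE scaling, no TMM scaling (chosen after seeing the data), no filter, removal of Rn45s, scores over S phase or G2 and M phase genes alone, a replicate block and leaving out each library. The fits were tested on simulated counts. Gene positions and shared 50-base words are from GENCODE M21, and promoter windows from RefSeq, which matched 8 of the 9 genes. The members and gene lists were chosen with earlier results of these data known. The text names all 9 members, the gene of smallest edgeR p in each direction of each other list (given as not passing), and the 3 genes most like the most abundant member of each family. At totals of 21.2 to 38.9 M counts, a gene with 0 counts could still have up to 3 counts, or 0.0699 to 0.144 CPM.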

Additional observations from a re-analysis of the deposited data

How the results depend on the processing

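The log2 fold changes of Hmgb1, Hmgb2, Hmgb3, Hmgn1 and Hmgn2 kept their sign in all alternatives that leave the score out of the model, with 0.68 to 0.98 for Hmgb2 when 1 library was left out. Those of Hmga1 (-0.31 to 0.25 when 1 library was left out), Hmga2 (-0.36 to 0.01), Hmgn3 (-0.10 to 0.19) and Hmgn5 (-0.23 to 0.18) took both signs. With the score as a covariate, Hmgb2 was at -0.34 and Hmgn2 at -0.056. The number of genes past the threshold between the groups was 0 by edgeR, 2 with no filter on low counts, 1 with no TMM scaling, 1 by limma on the deposited log2 values, 146 by DESeq2 and 0 to 1 when 1 library was left out; the cause was not tested. Of the 9 genes DESeq2 called Hmgb2, and with a replicate block also Hmgn2, in the contrast they were chosen on. Among all genes it called 146 without the block and more with it. These were not expressed as a share of the genes that DESeq2 tested, so nothing is read from the calls of members. For the slope on the score the number of genes was 0 by edgeR and 176 by DESeq2. Of the 9 genes, 1 to 2 did not overlap between the groups when 1 library was left out (Hmgb2, and also Hmgn2 without NEO1+ library 5). That library was the only NEO1+ library inside the NEO1- range of Hmgn2. The share of all genes that did not overlap was not counted in these fits, so nothing is read from these numbers. Without TMM scaling the median log2 fold change of all genes tested moved from 0.01 to 0.16.

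Some slopes changed sign across alternatives, none past the threshold. Over S phase genes alone the slope was -0.21 for Hmga1 and 0.00049 for Hmgn3, over G2 and M phase genes alone it was -0.0053 for Hmgb1, with DESeq2 it was -0.0028 for Hmga1, and without TMM scaling it was 0.014 for Hmgb3 and 0.065 for Hmgn3. When 1 library was left out, the slope ran from -1.31 to 0.21 for Hmga1, from -0.23 to 0.077 for Hmgn3 and from -0.069 to 0.71 for Hmgn5. The slope of Hmgb2 ran from 0.55 to 1.32, that of Hmga2 from -0.93 to -0.31, that of Hmgb1 from 0.061 to 0.13 and that of Hmgn1 from 0.029 to 0.16.

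Same-numbered NEO1+ and NEO1- libraries shared little: the correlation of their deviations across genes was 0.004 to 0.036. The mean for libraries of different numbers was -0.004. Of the libraries, 3 of 5 NEO1+ and 1 of 5 NEO1- correlated best with their own number. The labels do not say whether the numbers are pairs, and they were not taken as pairs, but such correlations cannot exclude a pairing. With the replicate number as a block, edgeR called 0 genes (874 at an unadjusted p under 0.05) and DESeq2 742. Depth limits Hmga1 most, at 13 to 57 counts per library.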

Other observations

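Of the related rows in the count table, Hmgb4 had 0 counts in all 10 libraries, and Hmgb1-rs17 had 3 counts in all. Hmga2-ps1, a pseudogene of Hmga2, had 82 counts in NEO1+ library 1 and 15 in NEO1+ library 3, and 0 in the other 8 libraries. In NEO1+ library 1 Hmga2 itself was the highest of the 10 libraries, at 24.7 CPM, and in NEO1+ library 3 it was at 12.1 CPM.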
